A study of Mus musculus with 12 samples.

Results

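Adult mice lacking NCoR1 in the intestine (KO) were compared with wild type (WT) mice of the same age across all genes expressed in the small intestine. The adult libraries were chosen by genotype and age from the sample labels and made up 6 of the 12 libraries of the study, 3 per genotype. All mice were C57BL/6 and the adults were 10 weeks old, per the labels. RNA came from the whole small intestine, ground while frozen, and each library combined RNA from 2 mice, as the series design states. The labels describe the genotype as an intestinal knockout and state neither the promoter that drove the deletion nor the exons removed. F/FUN and DIECUN mice appear in the design text but are not tied to groups, so any allele that both groups carry is unknown here. The other 6 libraries came from WT and KO neonates of 12 days and served only to test how the effect of the knockout differed between ages.

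NCoR1 is a corepressor, a protein that nuclear receptors and other transcription factors recruit to keep their target genes low. It works in a complex with the histone deacetylase HDAC3 and the proteins TBL1X, TBL1XR1 and GPS2. In the intestine its partners include LXR, which senses sterols, PPAR-alpha, which senses fatty acids, the drug sensor PXR, the bile acid receptor FXR, the thyroid hormone receptors and the clock repressors REV-ERB alpha and beta.

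Recovered reads in genes ranged from 9775420 to 11769729 in the WT pools and from 11912305 to 13057329 in the KO pools, so every KO library was deeper than every WT library. The 3 pools of a genotype are named WT pool 1 to 3 and KO pool 1 to 3. Levels are given below in CPM, reads of a gene per 1000000 reads in genes, after trimmed mean of M-values (TMM) scaling, always in the order of replicates 1, 2 and 3. The first principal component held 52.6% of the variance and placed the WT libraries at -19.3, -22.2 and -16.6 and the KO libraries at 13.1, 23.3 and 21.7. On the next component, with 17.4%, WT pool 3 stood at -21.0, below the other libraries. The labelled tissue was checked with 8 small intestine genes, such as Vil1, Cdx2 and Fabp2: none was called, and their summed level was 19730 to 22226 CPM for WT pools against 20816 to 25197 CPM for KO pools. Markers of neighbouring organs varied between libraries, and the summed stomach markers were lower in every KO library than in any WT library. Summed over 6 stomach genes, of which 2 were at 0 in every library, the level was 132, 130 and 23.0 CPM for WT pools against 7.49, 13.9 and 14.6 CPM for KO pools, and 10 pancreatic acinar genes summed to 1975, 5788 and 2282 CPM for WT pools against 1815, 348 and 2323 CPM for KO pools. Of these, 2 stomach and 8 pancreatic genes passed the filter, and none was called by limma with all libraries. Both stomach genes (median log2 difference -2.503) were called lower by limma without WT pool 3 and by the count test DESeq2 with all libraries. The part of these tissues in the results was not tested. Because whole tissue was used, fewer cells of a type and less RNA per cell cannot be told apart.

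Ncor1 itself was lower in every KO library, and 4 partners of its complex were higher. Ncor1 (Entrez Gene 20185, mm9 chromosome 11, 62129928 to 62252017, minus strand) measured 232, 236 and 238 CPM in the WT pools against 163, 176 and 174 CPM for KO, a log2 difference of -0.46 (SE 0.0736, limma adjusted p = 0.00167). The level in KO was thus 0.727 of that in WT, and a read count over the whole gene cannot separate transcripts of undeleted exons from those of undeleted cells. Tbl1xr1, which helps to exchange corepressors for coactivators, had WT values of 128, 133 and 142 CPM and KO values of 329, 309 and 320 CPM (log2 difference 1.24, SE 0.076, limma adjusted p = 2.02e-06). Its relative Tbl1x measured 25.1, 26.0 and 26.3 CPM in the WT pools against 36.7, 42.0 and 45.3 CPM for KO (log2 difference 0.66, SE 0.0935, limma adjusted p = 0.000753). For both genes the genotypes were far apart compared with their replicates. Hdac3 was higher by 0.37 (limma adjusted p = 0.0108) and Gps2 by 0.34 (0.0352), but these smaller differences were called less securely. Hdac3 lost its call without WT pool 2 (0.0527) or KO pool 3 (0.0604). Gps2 lost its call with the deposited scaling (0.123), with no filter on low values (0.0549) and without WT pool 1 (0.0864), WT pool 2 (0.105), KO pool 2 (0.0761) or KO pool 3 (0.16). DESeq2 did not call Gps2 (DESeq2 adjusted p = 0.0848).

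**Figure D1:**
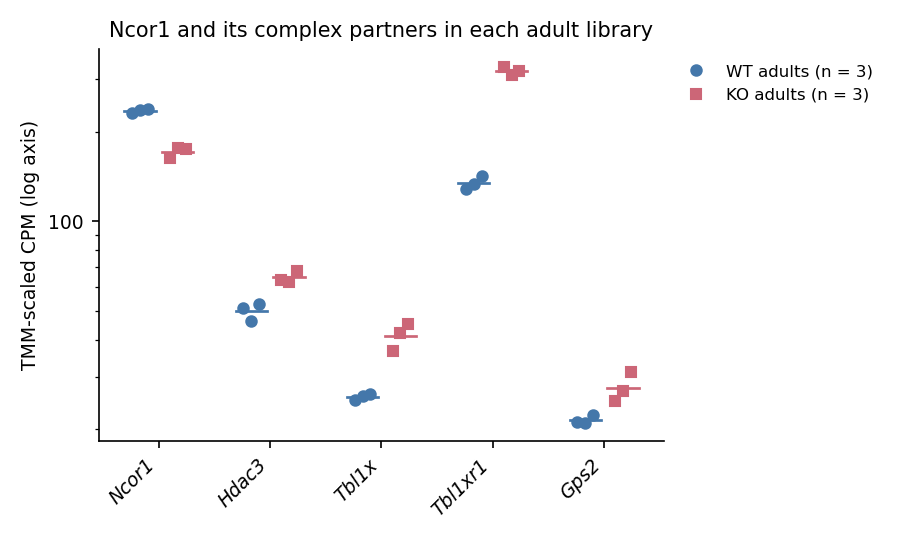
TMM-scaled CPM (log axis) of Ncor1 and 4 genes of its complex in the 3 WT and 3 KO adult libraries; points are libraries and lines are group means. Ncor1 lies lower in all KO libraries (163 to 176 against 232 to 238 CPM), and the other 4 genes lie higher in all KO libraries.

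More genes were called higher than lower in KO with TMM scaling, a split that turned the other way with the deposited scaling. Of 13417 genes tested, limma called 2188 (16.3%), 1334 higher (9.94%) and 854 lower (6.37%) in KO, at an adjusted p under 0.05. Most differences were small: 141 called genes differed by at least 1 on the log2 scale, and 40 of them were lower. Levels did not overlap between the genotypes in 4731 genes (35.3%). The median difference over all genes was -0.003 on the log2 scale. With the deposited scaling it was -0.113, and the split became 741 higher and 1870 lower, so directions below are relative to the typical gene. The total fell to 1234 without WT pool 2, to 1355 without KO pool 2 and to 1050 without KO pool 3.

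**Figure D2:**
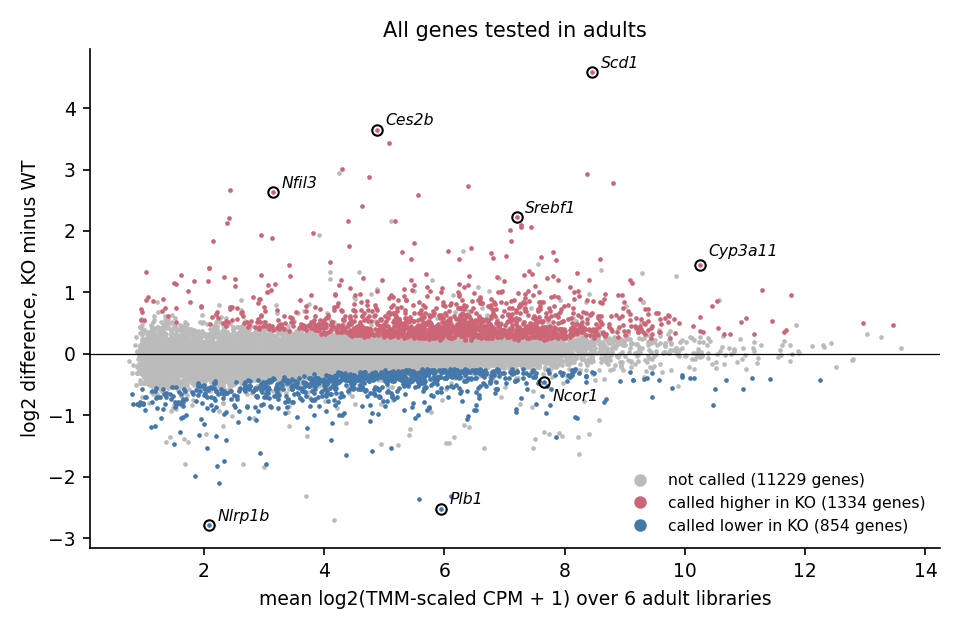
Log2 difference (KO minus WT) against mean log2 level for the 13417 genes tested in adults; red and blue points are genes called higher (1334) and lower (854) by limma, and circles mark 8 genes named in the text. Scd1 lies highest at 4.59 and Nlrp1b lowest at -2.79.

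Of the fatty acid synthesis genes, the desaturase genes Scd1 and Scd2 and Srebf1, whose product drives the pathway, had the largest rises. Of 20 members tested, 12 were higher, 0 lower and 8 not called, and the list's median log2 difference was 0.425 against -0.003 for all genes. With 1 library left out, 8 to 10 were higher, the lowest number without KO pool 3. Srebf1, which encodes the sterol-regulated factor SREBP1 (mm9 chromosome 11, 60012591 to 60034106), measured 71.4, 61.8 and 68.3 CPM in the WT pools against 282, 297 and 381 CPM for KO (4.77-fold, log2 difference 2.23, SE 0.111, limma adjusted p = 1.43e-06). Scd2, a desaturase that makes monounsaturated fatty acids, had WT values of 150, 169 and 193 CPM and KO values of 916, 1255 and 1406 CPM (6.98-fold, log2 difference 2.78, SE 0.161, limma adjusted p = 3.02e-05). For both genes every KO library lay far above every WT library. Scd1, the other desaturase, had the largest rise of all called genes, from 192, 38.2 and 48.2 CPM in WT to 1582, 1362 and 2392 CPM in KO (log2 difference 4.59, SE 0.74, limma adjusted p = 0.0259). The WT libraries of Scd1 were spread widely, with WT pool 1 above the others, and the call held without that library. The Scd1 call ended in a limma fit with same-numbered replicates as blocks (a replicate block, adjusted p = 0.102). It also ended without WT pool 2 (adjusted p = 0.0824), WT pool 3 (0.0728), KO pool 1 (0.0681), KO pool 2 (0.0864) or KO pool 3 (0.105).

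Further steps of the pathway moved the same way by less. Acacb, the acetyl-CoA carboxylase of the mitochondrial surface, measured 6.49, 5.725 and 6.17 CPM in the WT pools against 24.2, 24.05 and 32.9 CPM for KO (log2 difference 1.96, SE 0.131, limma adjusted p = 3.87e-06). The elongase gene Elovl6 had WT values of 135, 179 and 166 CPM and KO values of 288, 297 and 317 CPM (log2 difference 0.92, limma adjusted p = 0.000146). Mid1ip1, whose product helps carboxylase to polymerize, was higher by 0.94 (limma adjusted p = 5.92e-05). Me1, the malic enzyme that supplies NADPH, rose by 2.10 from 62.4, 60.8 and 104 CPM to 246, 402 and 325 CPM (limma adjusted p = 0.0119), and its call ended without KO pool 3 (0.0553). Acaca, the cytosolic carboxylase, measured 10.2, 10.45 and 9.155 CPM in the WT pools against 14.4, 14.6 and 12.05 CPM for KO (log2 difference 0.42, SE 0.116, limma adjusted p = 0.0285). Its call ended with the deposited scaling (0.0989) and without WT pool 1 (0.0565), WT pool 2 (0.0592), WT pool 3 (0.0725), KO pool 1 (0.0781) or KO pool 2 (0.108). DESeq2 did not call Acaca (DESeq2 adjusted p = 0.0828). Fasn and Acly were not called. Fasn, fatty acid synthase, measured 141, 99.8 and 96.8 CPM in the WT pools against 145, 154 and 145 CPM for KO and missed the threshold (log2 difference 0.41, limma adjusted p = 0.056), although it passed without WT pool 1 (0.00139). Acly, ATP citrate lyase, was not called (log2 difference 0.14, limma adjusted p = 0.275).

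LXR targets, some of which carry sterols out of the enterocyte, were also mostly higher. Of 12 tested, 8 were higher and 2 lower, with a median log2 difference of 0.826; Srebf1 and Scd1 belong to this list as well. Abcg5 and Abcg8 encode the paired transporter that returns sterols to the lumen. Abcg5 had WT values of 263, 233 and 231 CPM and KO values of 452, 417 and 474 CPM (log2 difference 0.88, SE 0.0864, limma adjusted p = 6.46e-05). Abcg8 measured 203, 199 and 198 CPM in the WT pools against 384, 385 and 446 CPM for KO (log2 difference 1.01, SE 0.083, limma adjusted p = 1.99e-05). Both genes rose, and no KO library overlapped a WT library. Abca1, the exporter that loads high-density lipoprotein, rose further, from 97.8, 63.4 and 48.7 CPM to 311, 225 and 294 CPM (log2 difference 2.01, SE 0.294, limma adjusted p = 0.014), and its call ended without WT pool 2 (0.0667) or KO pool 3 (0.0618). Lpcat3, which remodels phospholipids, was higher by 0.96 (limma adjusted p = 0.000229) and Abcg1 by 0.77 (0.00223). The lower members were Nr1h3, the gene of LXR alpha, with WT values of 50.92, 49.95 and 50.15 CPM and KO values of 33.6, 27.4 and 33.7 CPM (log2 difference -0.66, SE 0.0932, limma adjusted p = 0.000676), and Mylip (-0.45, limma adjusted p = 0.0256). Mylip, a ubiquitin ligase, lost its call without WT pool 1 (0.0734), WT pool 3 (0.0698), KO pool 2 (0.0825) or KO pool 3 (0.107). The list held 5 higher members without WT pool 2 or KO pool 3, and 1 lower member without WT pool 1, WT pool 3, KO pool 2 or KO pool 3.

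Cholesterol synthesis genes were higher in part. Of 23 genes tested, 13 were higher and 0 lower, with a median log2 difference of 0.470, and 7 were higher without KO pool 3. Insig1, which retains the SREBP machinery in the endoplasmic reticulum, had WT values of 71.6, 86.0 and 69.9 CPM and KO values of 160, 187 and 200 CPM (log2 difference 1.25, SE 0.103, limma adjusted p = 2.12e-05). Pmvk and Lss, enzymes of the mevalonate and lanosterol steps, were higher by 0.72 (limma adjusted p = 0.002) and 0.69 (0.00433), and Fdft1, squalene synthase, by 0.47 (0.00641).

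Fatty acid oxidation genes rose widely, and Ppara, the receptor that drives the pathway, was itself higher. Of 29 tested genes of oxidation and PPAR-alpha control, 21 were higher and 0 lower, with a median log2 difference of 0.899, while the deposited scaling gave 20 higher and 1 lower. Ppara measured 134, 105 and 99.0 CPM in the WT pools against 288, 230 and 316 CPM for KO (2.47-fold, log2 difference 1.3, SE 0.141, limma adjusted p = 0.000492). Import into mitochondria was represented by Slc25a20, the carnitine carrier, with WT values of 47.7, 43.4 and 49.7 CPM and KO values of 148, 159 and 162 CPM (log2 difference 1.72, SE 0.0801, limma adjusted p = 7.77e-07). Cpt1a, the gatekeeper of the pathway, had WT values of 138, 138 and 128 CPM and KO values of 259, 247 and 307 CPM (log2 difference 1.0, SE 0.0915, limma adjusted p = 4.52e-05). Replicates of these 3 genes lay close together relative to the gap between genotypes. Hadha, of mitochondrial beta-oxidation, was higher by 0.90 (limma adjusted p = 2.88e-05), and Ehhadh, its peroxisomal counterpart, by 1.31 (9.36e-06). The pantetheinase gene Vnn1 and the lipid droplet coat gene Plin2 were higher by 1.35 (limma adjusted p = 1.83e-06) and 1.27 (1.04e-05). Some of the largest changes were called less securely. Pdk4, a kinase that restrains glucose oxidation, measured 38.5, 38.8 and 21.1 CPM in the WT pools against 189, 159 and 328 CPM for KO (log2 difference 2.73, SE 0.401, limma adjusted p = 0.0183). Its call ended with a replicate block (0.128) and without WT pool 1 (0.0564) or WT pool 2 (0.0614). Acot1, a thioesterase, was higher by 2.66 (limma adjusted p = 0.00886) and lost its call without WT pool 1 (0.0608) or WT pool 2 (0.0621). Acaa1b, a peroxisomal thiolase, was higher by 2.41 (limma adjusted p = 0.0225) and lost its call without WT pool 2 (0.0848) or WT pool 3 (0.0763). Among the genes below, some were chosen after their values were seen. These were Fabp6, Ces2e, Ces1e, Ces1f, Cyp3a13, Nqo1, Hmox1, Ppard, Cry1, Hlf, the period genes, Dbp, Nlrc4 and Muc2.

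**Figure D3:**
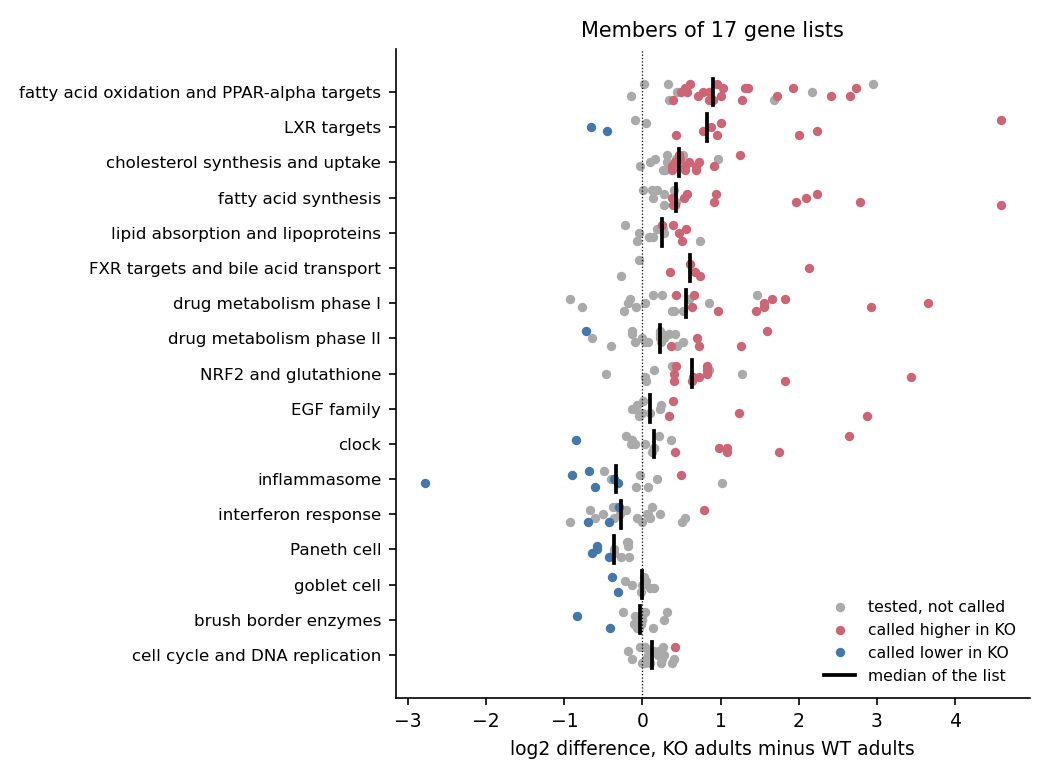
Log2 difference (KO minus WT) of each tested member of 17 gene lists; points are genes, coloured when called by limma, and black bars are list medians. The lipid lists lie to the right (medians 0.253 to 0.899), and the inflammasome, interferon and Paneth lists lie to the left (medians -0.338, -0.271 and -0.370).

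Some genes of lipid absorption and of bile acid handling were higher. Among 15 genes for taking up lipid and packing it into lipoproteins, limma called 5 higher and 0 lower, with a median log2 difference of 0.253. The number higher was 2 without WT pool 2, KO pool 1 or KO pool 3, and the deposited scaling gave 3 higher and 1 lower. Apoc2, the activator of lipoprotein lipase, measured 726, 817 and 703 CPM in the WT pools against 1021, 999 and 1309 CPM for KO (log2 difference 0.56, SE 0.113, limma adjusted p = 0.00647). Among 7 genes of bile acid transport or FXR control, 5 were higher and 0 lower, with a median of 0.612, and 3 were higher without WT pool 1 or KO pool 3 or with the deposited scaling. Nr0b2, the repressor SHP that FXR induces, had WT values of 1.48, 1.66 and 1.39 CPM and KO values of 9.54, 7.54 and 13.8 CPM (log2 difference 2.13, SE 0.189, limma adjusted p = 3.32e-05). Slc51a, part of the basolateral bile acid exporter, measured 363, 360 and 445 CPM in the WT pools against 637, 628 and 684 CPM for KO (log2 difference 0.74, SE 0.097, limma adjusted p = 0.000434). Both genes were higher in all KO libraries than in any WT library. Fgf15, the hormone that signals bile acid return to the liver, had WT values of 2.87, 3.65 and 5.27 CPM and KO values of 8.31, 5.13 and 7.05 CPM, with overlap between the groups (limma adjusted p = 0.0435). That call was lost with the deposited scaling (0.0678), with no filter on low values (0.0616) and without WT pool 1 (0.126), WT pool 2 (0.14), KO pool 1 (0.135) or KO pool 3 (0.15). The ileal bile acid binding protein gene Fabp6 was at a high level in both genotypes and not called (log2 difference -0.27, limma adjusted p = 0.56).

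Among drug metabolism genes, 3 carboxylesterases and 3 cytochromes of the Cyp3a family were higher, and other members of both families were not called. Of 26 phase I genes tested, 11 were higher and 0 lower, with a median log2 difference of 0.554; without WT pool 3 the counts were 11 and 2, and with the deposited scaling 11 and 1. Carboxylesterases of the Ces2 family cleave ester drugs and acylglycerols. Ces2b measured 7.39, 10.1 and 5.18 CPM in the WT pools against 121, 71.8 and 127 CPM for KO (14.1-fold, log2 difference 3.65, SE 0.323, limma adjusted p = 0.00268). Ces2a had WT values of 136, 94.1 and 132 CPM and KO values of 1006, 651 and 1130 CPM (log2 difference 2.92, SE 0.258, limma adjusted p = 0.002). Ces2c was higher by 1.66 (limma adjusted p = 9.82e-05), and KO pool 2 was the lowest KO library for each of the 3 genes. Ces2e (log2 difference 0.25, limma adjusted p = 0.0765), Ces1e (0.13) and Ces1f (0.52) were tested and not called. Among cytochromes P450, Cyp3a25 measured 274, 216 and 189 CPM in the WT pools against 693, 562 and 725 CPM for KO (log2 difference 1.55, SE 0.142, limma adjusted p = 0.000146). Cyp3a11, a main drug oxidase, had WT values of 1032, 692 and 554 CPM and KO values of 2169, 1635 and 2284 CPM (log2 difference 1.45, SE 0.256, limma adjusted p = 0.0166). The low gene Cyp3a44 was higher by 1.83 (limma adjusted p = 5.09e-05), and Cyp3a13, with up to 1333 CPM, was not called (log2 difference -0.08, limma adjusted p = 0.75). The Cyp3a11 call was lost without WT pool 2 (0.0788) or KO pool 3 (0.0627). Por, the reductase that supplies them with electrons, was higher by 0.97 (limma adjusted p = 0.000365). Cyp2b10 went the other way without being called by limma, with WT values of 513, 441 and 321 CPM and KO values of 284, 191 and 267 CPM (log2 difference -0.77, limma adjusted p = 0.0706). It passed in limma without WT pool 3 (0.011) or with a replicate block (0.0482). DESeq2 called Cyp2b10 lower (log2 difference -0.80, DESeq2 adjusted p = 1.83e-05), and edgeR did not call it. Ces2, Cyp3a and Gstm genes have close copies, and no source used here says how the authors counted reads that match several copies, so the split between relatives is uncertain.

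Conjugation genes were fewer to change. Of 24 phase II genes, 5 were higher and 1 lower, with a median log2 difference of 0.232. The number higher was 3 without WT pool 2, and none was lower without WT pool 1, WT pool 2, KO pool 1 or KO pool 2, while the deposited scaling gave 4 higher and 3 lower. The glutathione transferase gene Gstm3 measured 151, 143 and 136 CPM in the WT pools against 312, 290 and 456 CPM for KO (log2 difference 1.26, SE 0.156, limma adjusted p = 0.00146). Gstp1 was higher by 0.70 (limma adjusted p = 0.00058) and the sulfotransferase gene Sult1d1 by 0.73 (0.00103). Ugt1a1, the enzyme that conjugates bilirubin, varied within both groups, with WT values of 110, 62.6 and 92.1 CPM and KO values of 143, 71.3 and 100 CPM, and was not called (log2 difference 0.22, SE 0.348, limma adjusted p = 0.725). Ugt1a genes share exons, so this value cannot be assigned to a particular isoform.

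NADPH and glutathione genes formed a further group with higher members. Of 18 NRF2 and glutathione genes, 11 were higher and 0 lower, with a median log2 difference of 0.636, and 7 were higher without KO pool 3. Akr1b8, an aldo-keto reductase, had WT values of 10.9, 9.13 and 7.96 CPM and KO values of 84.1, 119 and 135 CPM (12.1-fold, log2 difference 3.44, SE 0.181, limma adjusted p = 3.15e-05). G6pdx, Pgd and Tkt, enzymes of the pentose phosphate pathway, were higher by 0.83 (limma adjusted p = 0.00225), 0.82 (0.00126) and 0.65 (0.000946). Gclm, a subunit of the enzyme that starts glutathione synthesis, was higher by 0.73 (limma adjusted p = 0.000264). The classic NRF2 targets Nqo1 and Hmox1 were not called, with log2 differences of 0.03 and 0.38.

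Nuclear receptor genes themselves went both ways. Of 26 tested, 6 were higher and 3 lower, with a median log2 difference of 0.121, and the deposited scaling gave 5 higher and 6 lower. Beside Ppara, the higher genes included Nr1i2, which encodes PXR, with WT values of 118, 105 and 96.7 CPM and KO values of 167, 153 and 180 CPM (log2 difference 0.65, SE 0.0927, limma adjusted p = 0.000804). The FXR gene Nr1h4 was higher by 0.61 (limma adjusted p = 0.000575), Ppard by 0.60 (0.0026) and the vitamin D receptor gene Vdr by 0.46 (0.0058). Pparg, the receptor of fat storage, was lower, with WT values of 21.3, 25.3 and 21.1 CPM and KO values of 15.2, 10.6 and 13.1 CPM (log2 difference -0.76, SE 0.131, limma adjusted p = 0.00243). Retinoid handling was split, with 4 of 12 genes higher and 2 lower and a median log2 difference of 0.087. Retsat, which saturates retinol, measured 136, 104 and 99.5 CPM in the WT pools against 366, 260 and 397 CPM for KO (log2 difference 1.57, SE 0.187, limma adjusted p = 0.00241). Lrat, which makes retinyl esters, moved the opposite way, with WT values of 70.0, 64.1 and 60.6 CPM and KO values of 31.0, 33.8 and 28.3 CPM (log2 difference -1.04, SE 0.0912, limma adjusted p = 3.06e-05). Isx, a repressor of carotenoid uptake, was higher by 0.59 (limma adjusted p = 0.00146) and Bcmo1, the beta-carotene cleaving enzyme, lower (log2 difference -1.06, limma adjusted p = 0.00413). Of 6 thyroid hormone targets, 3 were higher and 1 lower, with a median of 0.263. Dio1, a deiodinase, was higher by 0.51 (limma adjusted p = 0.00321), and the lower gene was Thrb itself (-0.27, limma adjusted p = 0.0427). Thrb lost its call with no filter on low values (0.0692), with a replicate block (0.0723) and without WT pool 1 (0.136), WT pool 2 (0.106), KO pool 1 (0.0632), KO pool 2 (0.115) or KO pool 3 (0.127). DESeq2 did not call Thrb (DESeq2 adjusted p = 0.0837). The number of higher thyroid hormone targets was 2 without WT pool 1 or KO pool 2 and 1 without KO pool 3. Of 5 vitamin D targets, 2 were higher and 0 lower with a median of 0.465, and 1 was higher without KO pool 3.

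Of the clock genes, Arntl, Npas2, Nfil3, Nr1d1 and Bhlhe40 were higher. REV-ERB alpha and beta bind short RORE sequences and recruit NCoR1 to hold down Arntl, Npas2 and Nfil3, which is background to the following windows and not a result. Of 17 clock genes tested, 6 were higher and 1 lower, with a median log2 difference of 0.154; without KO pool 3 the counts were 5 and 0, and with the deposited scaling 5 and 2. The RORE core TAGGTCA was searched on both strands, a motif added after the expression values were seen. It occurs in 2.61% of 32851 RefSeq promoter windows of 300 bases and in 2 of 20 windows of clock genes, those of Arntl and Nfil3. Both windows are shown on the strand of the gene with the match in capitals (GRCm38.p6, chr7:113207261-113207560, plus strand, for Arntl and chr13:52980990-52981289, minus strand, for Nfil3). The match begins 30 bases after the annotated start of Arntl and 12 bases before that of Nfil3.
Arntl: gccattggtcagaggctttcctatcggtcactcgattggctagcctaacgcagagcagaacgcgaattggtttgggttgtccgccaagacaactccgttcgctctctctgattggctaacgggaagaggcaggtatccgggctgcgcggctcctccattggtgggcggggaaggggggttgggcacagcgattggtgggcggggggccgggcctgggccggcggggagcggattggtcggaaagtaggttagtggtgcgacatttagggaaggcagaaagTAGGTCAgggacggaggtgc
Nfil3: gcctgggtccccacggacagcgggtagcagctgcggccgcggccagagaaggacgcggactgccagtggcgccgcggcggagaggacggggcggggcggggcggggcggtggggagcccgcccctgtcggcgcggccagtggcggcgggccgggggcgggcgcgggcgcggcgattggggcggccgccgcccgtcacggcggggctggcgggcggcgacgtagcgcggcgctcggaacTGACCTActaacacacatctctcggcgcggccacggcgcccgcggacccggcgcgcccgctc
These windows are shown because they were the clock gene windows that held the RORE core. A match is a description of letters and no evidence of binding.

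Arntl, the core activator BMAL1, had WT values of 10.0, 13.1 and 9.155 CPM and KO values of 38.5, 38.3 and 37.9 CPM (3.55-fold, log2 difference 1.75, SE 0.12, limma adjusted p = 4.68e-06). Nfil3, a repressor of D-box genes, measured 2.30, 1.99 and 3.58 CPM in the WT pools against 17.7, 25.5 and 21.3 CPM for KO (8.195-fold, log2 difference 2.64, SE 0.179, limma adjusted p = 6.81e-06). Npas2, a partner of BMAL1, had WT values of 29.7, 38.8 and 37.4 CPM and KO values of 72.5, 68.3 and 87.1 CPM (log2 difference 1.08, SE 0.118, limma adjusted p = 0.000173). For all 3 genes the lowest KO library lay above the highest WT library. Nr1d1, the gene of REV-ERB alpha, was higher too, with WT values of 156, 220 and 184 CPM and KO values of 375, 400 and 407 CPM (log2 difference 1.08, SE 0.112, limma adjusted p = 0.00011). Bhlhe40, a repressor of the clock, was higher by 0.98 (limma adjusted p = 5.09e-05). Cry1, a further repressor, was higher by 0.42 (limma adjusted p = 0.0417), and Hlf, a D-box activator, was lower (log2 difference -0.85, limma adjusted p = 0.0124). Cry1 lost its call with the deposited scaling (0.0909), with no filter on low values (0.0616) and with a replicate block (0.0701). It also lost it without WT pool 2 (0.149), WT pool 3 (0.0612), KO pool 1 (0.0562), KO pool 2 (0.132) or KO pool 3 (0.132). DESeq2 did not call Cry1 (DESeq2 adjusted p = 0.0595). Hlf lost its call without KO pool 3 (0.0633). The period genes were not called, with log2 differences of 0.36 for Per1, 0.21 for Per2 and 0.12 for Per3, nor was Dbp (0.03). The sources used here give no time of day for tissue collection, and its part in these values was not tested.

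**Figure D4:**
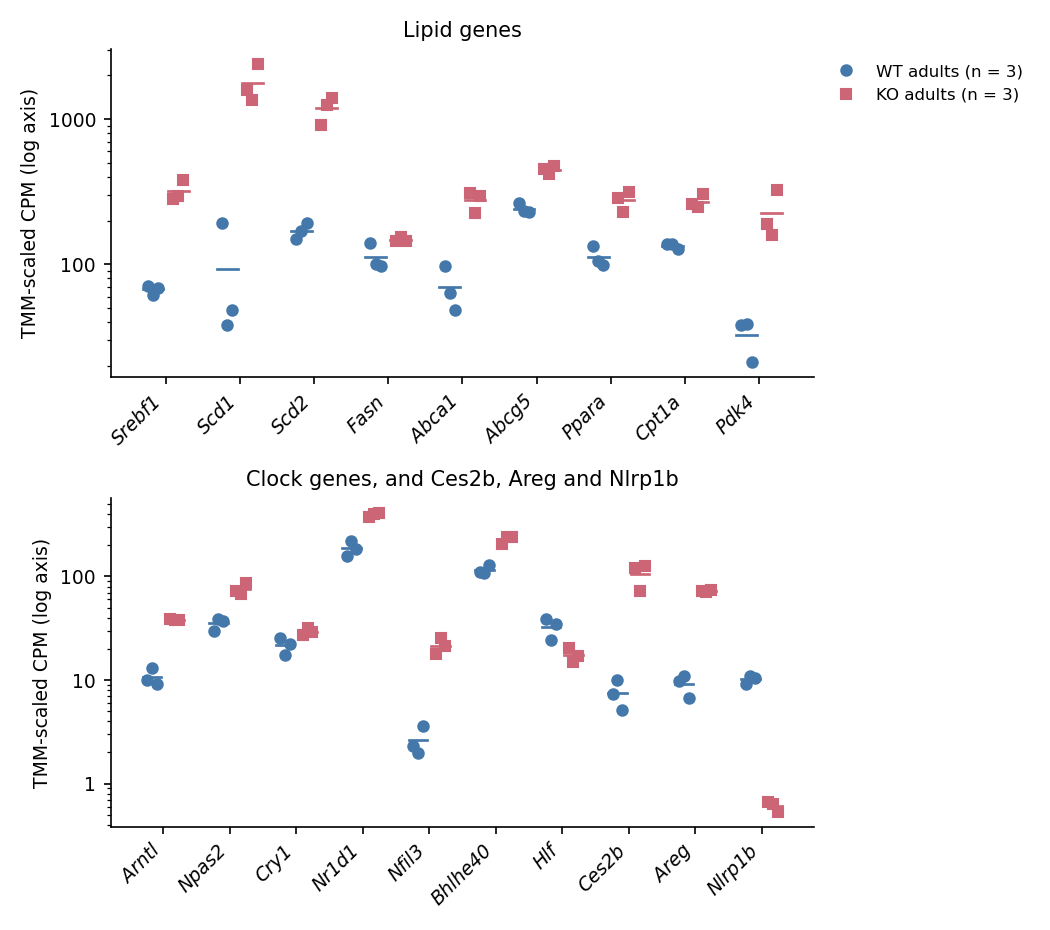
TMM-scaled CPM (log axes) in the 3 WT and 3 KO adult libraries for 9 lipid genes (top) and 7 clock genes with Ces2b, Areg and Nlrp1b (bottom); points are libraries and lines are group means. The groups separate for every gene shown, and the narrowest gap is that of Fasn, with 141 CPM in the highest WT and 145 CPM in the lowest KO library.

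Sequence of the promoter windows was also searched for motifs of the lipid regulators. Windows were found for 16 of the 20 fatty acid synthesis genes, 9 of the 12 LXR targets, 23 of the 31 listed oxidation genes and 15 of the 17 clock genes, and some genes have several. The sterol regulatory element TCACNCCAC and the LXR motif DR4, a direct repeat of AGGTCA with 4 bases between, occur in 1.24% and 0.0152% of all windows and in 0 of 20 windows of the fatty acid synthesis genes and 0 of 13 windows of the LXR targets. The PPAR motif DR1, the same repeat with 1 base between, occurs in 0.0396% of all windows and in 0 of 24 windows of the oxidation genes. The E-box CACGTG occurs in 7.15% of all windows, in 2 of the 20 fatty acid synthesis windows (Elovl5 and Slc25a1), in 1 of the 13 LXR target windows (Abca1) and in 6 of the 20 clock windows. Exact letters were required, so looser forms of these elements were not counted.

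Growth factor genes of the EGF family were led by amphiregulin. Of 13 tested, 4 were higher and 0 lower, with a median log2 difference of 0.100, and 1 was higher without KO pool 3. Areg, amphiregulin, measured 9.69, 10.9 and 6.67 CPM in the WT pools against 73.0, 70.2 and 73.4 CPM for KO (7.955-fold, log2 difference 2.88, SE 0.141, limma adjusted p = 1.51e-06). Ereg, epiregulin, had WT values of 13.6, 22.2 and 11.8 CPM and KO values of 43.6, 33.3 and 36.9 CPM (log2 difference 1.24, SE 0.226, limma adjusted p = 0.0137), and its call ended without WT pool 1 (0.063) or KO pool 3 (0.0589). The receptor gene Egfr was not called (log2 difference 0.24, limma adjusted p = 0.187). Of 26 proliferation genes tested, 1 was higher and 0 lower, with a median of 0.123, a count to be read beside the 16.3% of all genes called. The proliferation marker Mki67 measured 189, 240 and 184 CPM in the WT pools against 192, 172 and 172 CPM for KO and was not called (log2 difference -0.19, limma adjusted p = 0.245). The 1 higher gene was Cdc20 (0.42, limma adjusted p = 0.0332). It lost its call with the deposited scaling (0.106), with no filter on low values (0.0508) and without WT pool 1 (0.116), WT pool 3 (0.0635), KO pool 1 (0.0519), KO pool 2 (0.0981) or KO pool 3 (0.117). DESeq2 did not call Cdc20 (DESeq2 adjusted p = 0.0888). Without WT pool 2 there were 2 higher proliferation genes. Of 15 p53 targets, 4 were higher and 1 lower, with a median of 0.274. Btg2, an antiproliferative gene, had WT values of 115, 123 and 116 CPM and KO values of 202, 205 and 263 CPM (log2 difference 0.91, SE 0.101, limma adjusted p = 0.000148). Cdkn1a, the cell cycle inhibitor p21, was higher by 0.42 (limma adjusted p = 0.015) and lost its call without WT pool 1 (0.053), WT pool 2 (0.0524) or KO pool 3 (0.073). Counts of the p53 list were 2 higher without WT pool 2 or WT pool 3 and 1 without KO pool 3, with none lower without WT pool 1, WT pool 2 or KO pool 2. Stem cell and Wnt genes gave 1 higher and 1 lower of 12, to be read beside the 16.3% of all genes called. Lgr5, the crypt base stem cell marker, measured 10.8, 13.6 and 10.7 CPM in the WT pools against 9.87, 7.14 and 8.04 CPM for KO (log2 difference -0.44, limma adjusted p = 0.051). Lgr5 passed the threshold without WT pool 3 (0.0461) or KO pool 1 (0.0309). It also passed with the deposited scaling (0.0207), DESeq2 size factors (0.0488) or a filter of 5 CPM (0.0454). The stem cell and Wnt counts were 0 and 3 without WT pool 3 or with the deposited scaling. They were 1 and 0 without WT pool 1, and 0 and 0 without WT pool 2, KO pool 2 or KO pool 3.

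Of the inflammasome genes more were called lower than higher. Of 14 tested, 1 was higher and 6 lower, with a median log2 difference of -0.338, and the number lower was 3 without WT pool 1 or WT pool 2. Nlrp1b, a sensor that activates caspase-1 (mm9 chromosome 11, 70966604 to 71014958), had the largest fall of all called genes. It had WT values of 9.12, 10.9 and 10.6 CPM and KO values of 0.658, 0.642 and 0.536 CPM (log2 difference -2.79, SE 0.147, limma adjusted p = 1.43e-06). Its neighbour in name, Nlrp1a, was below the filter, at 0.246, 0.249 and 0.299 CPM in the WT pools and with 0 reads in each KO library. Naip5, which detects bacterial flagellin, measured 209, 194 and 194 CPM in the WT pools against 117, 99.2 and 104 CPM for KO (log2 difference -0.90, SE 0.0829, limma adjusted p = 4.61e-05). Naip6 was lower as well (log2 difference -0.69, limma adjusted p = 0.00491), and Naip genes are close copies whose reads may be split. Nlrc4, the partner of the Naip sensors, was not called (log2 difference 0.07, limma adjusted p = 0.581). The higher gene was Gsdmd, the pore-forming gasdermin, with WT values of 268, 242 and 237 CPM and KO values of 343, 352 and 358 CPM (log2 difference 0.49, SE 0.0794, limma adjusted p = 0.00169). Interferon response genes had 1 higher and 3 lower of 23, with a median of -0.271. This count is to be read beside the 16.3% of all genes called. Irf1, a factor induced by interferon gamma, was the higher gene (0.79, limma adjusted p = 0.00047). The number lower was 1 without WT pool 1 or KO pool 3 and 0 without WT pool 2 or KO pool 2, and 2 genes were higher without WT pool 1 or KO pool 2. Of 11 class I antigen presentation genes, 4 were higher and 0 lower, with a median of 0.259. H2-K1 had WT values of 1143, 1010 and 1036 CPM and KO values of 1656, 1936 and 1904 CPM (log2 difference 0.78, SE 0.0965, limma adjusted p = 0.000299). H2-Q10 was higher by 3.01, from 4.68, 9.04 and 4.78 CPM to 38.9, 59.6 and 69.6 CPM (limma adjusted p = 0.00422), although class I genes are close copies whose reads may be split.

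In the lists of brush border, nutrient transporter, Paneth, goblet and enteroendocrine genes below, the called members were lower, and their counts are to be read beside the 16.3% of all genes called. Of 16 brush border genes, 0 were higher and 2 lower, with a median log2 difference of -0.033, and 1 was lower without WT pool 1 or KO pool 3. Lct, lactase, measured 2125, 1833 and 1774 CPM in the WT pools against 1067, 1013 and 1105 CPM for KO (log2 difference -0.84, SE 0.0962, limma adjusted p = 0.000168). Sis, sucrase-isomaltase, was not called (log2 difference -0.10, limma adjusted p = 0.551). Of 12 sugar and amino acid transporters, 0 were higher and 2 lower, with a median of -0.070. Slc2a2, the basolateral glucose transporter, had WT values of 625, 522 and 454 CPM and KO values of 315, 311 and 325 CPM (log2 difference -0.74, SE 0.107, limma adjusted p = 0.000861). With the deposited scaling 5 transporters were lower, without WT pool 3 there were 1 higher and 3 lower, and without WT pool 1 or KO pool 3 there was 1 lower. Paneth cell genes had 4 lower of 11 and the lowest median of these lists, -0.370, but 1 was lower without WT pool 2 or KO pool 3. Lyz1, lysozyme, measured 2679, 2410 and 2283 CPM in the WT pools against 1991, 1487 and 1475 CPM for KO (log2 difference -0.58, SE 0.124, limma adjusted p = 0.00817), and its call ended without KO pool 3 (0.0519). Goblet cell genes had 2 lower of 10, with a median of -0.009; none was lower without WT pool 2, KO pool 2 or KO pool 3 and 1 without WT pool 1, WT pool 3 or KO pool 1. Muc2, the main mucin, was not called (log2 difference -0.02). Enteroendocrine genes had 2 lower of 15, with a median of -0.097, and 1 without WT pool 1 or KO pool 3. The incretin gene Gip had WT values of 44.4, 36.1 and 39.6 CPM and KO values of 27.3, 25.4 and 25.5 CPM (log2 difference -0.60, SE 0.0941, limma adjusted p = 0.00153). Ghrl, ghrelin, which the stomach also makes, was lower (log2 difference -0.56, limma adjusted p = 0.0181) beside the higher stomach markers of WT pool 1 and 2; its call was lost without WT pool 1 (0.0675) or KO pool 3 (0.068), and the part of stomach tissue was not tested. None of 8 tuft cell genes was called.

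Outside the epithelium, fibroblast markers were lower and T cell markers higher in part. Fibroblast genes had 3 lower of 7, with a median log2 difference of -0.205 and a summed level of 494 to 633 CPM for WT pools against 435 to 448 CPM for KO pools. Lum, the matrix proteoglycan lumican, measured 18.4, 22.9 and 19.1 CPM in the WT pools against 12.83, 14.99 and 13.04 CPM for KO (log2 difference -0.53, SE 0.113, limma adjusted p = 0.00862). T cell genes had 3 higher of 8, with a median of 0.392 and a summed level of 92.4 to 122 CPM for WT pools against 136 to 171 CPM for KO pools. Gzma, a granzyme of intraepithelial lymphocytes, had WT values of 49.0, 42.4 and 41.6 CPM and KO values of 75.4, 63.5 and 68.8 CPM (log2 difference 0.63, SE 0.0928, limma adjusted p = 0.000941). Gzmb was higher by 0.71 (limma adjusted p = 0.00523). Smooth muscle (7 genes), myeloid (10) and MHC class II (7) markers gave 0 calls by limma. Without WT pool 3, 2 myeloid genes were called lower, and 1 smooth muscle gene was called lower without WT pool 1 or with the deposited scaling.

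Genes near Ncor1 were examined because a targeted allele keeps a stretch of chromosome around it. Within 2 Mb, 7 of 51 tested genes were called (13.7%), within 5 Mb 18 of 106 (17%) and within 10 Mb 51 of 251 (20.3%), beside 16.3% of all genes. Per chromosome the share ranged from 12.1% on chromosome 2 to 21.9% on chromosome 10. The count within 10 Mb was 29 without WT pool 2, 32 without KO pool 2 and 27 without KO pool 3. Slc47a1, an exporter of organic cations 0.94 Mb away, measured 85.2, 65.0 and 68.5 CPM in the WT pools against 41.1, 29.5 and 47.0 CPM for KO (log2 difference -0.89, SE 0.179, limma adjusted p = 0.0162), the largest difference within 2 Mb. Ulk2, an autophagy kinase 0.46 Mb away, had WT values of 39.6, 36.3 and 39.4 CPM and KO values of 30.2, 25.8 and 25.2 CPM (log2 difference -0.49, limma adjusted p = 0.00457). The other called genes were 2410006H16Rik, lower by a log2 difference of -0.43, and Fam211a (0.31), Aldh3a2 (0.38), Cox10 (0.39) and Smcr8 (0.28), which were higher. All 4 higher genes lost their call with the deposited scaling (0.131, 0.107, 0.0955 and 0.238 in that order) and without WT pool 2 (0.123, 0.14, 0.0938 and 0.193) or KO pool 3 (0.0941, 0.162, 0.149 and 0.0713). Leaving out WT pool 1 ended the calls of Fam211a (0.0764), Cox10 (0.112) and Smcr8 (0.104), as did leaving out KO pool 2 (0.121, 0.1 and 0.135). Aldh3a2 also lost its call without WT pool 3 (0.0885) or KO pool 1 (0.107), and Smcr8 without KO pool 1 (0.118). A replicate block ended the calls of Fam211a (0.0558) and Smcr8 (0.0862). With no filter on low values Aldh3a2 (0.0549), Cox10 (0.0505) and Smcr8 (0.0775) lost theirs, and Smcr8 also with DESeq2 size factors (0.0567). DESeq2 did not call Fam211a (DESeq2 adjusted p = 0.0665), Cox10 (0.0565) or Smcr8 (0.129). Srebf1 lies 2.10 Mb and Nlrp1b 8.71 Mb from Ncor1, so the gene with the largest fall lies inside the widest window. Gps2 (7.48 Mb), Irf1 (8.54 Mb) and Per1 (6.66 Mb), named above, lie inside it too. Whether sequence around the allele differs between the groups was not tested.

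Several of the largest changes lay outside these lists. Upward, Paqr7, a progestin receptor of the membrane, measured 20.6, 16.9 and 17.2 CPM in the WT pools against 119, 84.9 and 147 CPM for KO (log2 difference 2.58, SE 0.195, limma adjusted p = 0.000362). G6pc, the last enzyme of glucose release, had WT values of 14.95, 23.4 and 11.9 CPM and KO values of 71.1, 71.2 and 85.6 CPM (log2 difference 2.16, SE 0.239, limma adjusted p = 0.00302). Tmem252 was higher by 2.17 (limma adjusted p = 0.00135). Downward, Susd2 measured 185, 122 and 159 CPM in the WT pools against 29.5, 29.7 and 30.1 CPM for KO (log2 difference -2.32, SE 0.129, limma adjusted p = 5.68e-06). Akr1c14, a hydroxysteroid dehydrogenase, had WT values of 141, 94.3 and 92.8 CPM and KO values of 27.4, 15.1 and 19.0 CPM (log2 difference -2.37, SE 0.274, limma adjusted p = 0.00574). Enpp7, the alkaline sphingomyelinase of the gut, was lower (log2 difference -1.35, limma adjusted p = 7.07e-05), as was Pipox, a peroxisomal oxidase (-1.64, limma adjusted p = 2.7e-06). Plb1, the brush border phospholipase, measured 217, 112 and 129 CPM in the WT pools against 21.8, 16.4 and 42.1 CPM for KO (log2 difference -2.52, SE 0.467, limma adjusted p = 0.0352). The Plb1 call held without KO pool 3. It was lost with a replicate block (0.0933) and without WT pool 1 (0.0849), WT pool 2 (0.0892), WT pool 3 (0.0836), KO pool 1 (0.0859) or KO pool 2 (0.0975). The other called falls among the 15 largest were Olfr165, Ugt2b38, Fras1, Serpinb5, Lrrc3, St3gal1, Lamb3, Unc93a and Fam132a, with log2 differences from -2.11 for Olfr165 to -1.41 for Fam132a. Lamb3 lost its call with a replicate block (0.0615) and without WT pool 1 (0.0702) or WT pool 2 (0.0719). Fam132a lost its call without KO pool 1 (0.0517), KO pool 2 (0.0779) or KO pool 3 (0.061).

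The effect of the knockout in adults was compared with that in neonates of 12 days by testing the difference of the differences, since levels in separately scaled tables cannot be set side by side. Of 14604 genes, limma called 787 (5.39%), 469 with a higher value in adults (3.21%) and 318 with a lower value (2.18%); the total was 522 without WT neonates 3 and also 522 without KO neonates 3. Ncor1 fell less in adults, by 0.46 against 0.87 in neonates on the log2 scale (difference 0.41, SE 0.0907, limma adjusted p = 0.0105). Neonatal Ncor1 had WT values of 429, 435 and 446 CPM and KO values of 250, 221 and 247 CPM, so the groups were apart at both ages. Among the largest differences were genes at low levels in adults. Hgd, an enzyme of tyrosine breakdown, stood at 9.11, 8.31 and 7.96 CPM in WT neonates and 159, 154 and 177 CPM in KO neonates, and was below 0.5 CPM in every adult library (difference -3.96, SE 0.185, limma adjusted p = 9.86e-11). Lrp2, the endocytic receptor megalin, stood at 28.6, 28.1 and 26.6 CPM in WT neonates and 2.45, 3.24 and 2.66 CPM in KO neonates, and at most 1.69 CPM in adults (difference 2.91, SE 0.272, limma adjusted p = 3.75e-06). These values, like those of Ryr1 and Tmprss6, therefore describe neonates, because their adult levels were near 0.

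In other genes the adult difference was larger, smaller or of the opposite sign. Lct differed by -0.84 in adults and by -0.05 in neonates, where it measured 2576, 2622 and 2796 CPM in the WT pools against 2472, 2637 and 2599 CPM for KO (difference -0.79, SE 0.104, limma adjusted p = 0.00013). Nlrp1b differed by -2.79 in adults and -0.32 in neonates, where it had WT values of 1.24, 1.52 and 4.45 CPM and KO values of 3.10, 0.872 and 1.06 CPM (difference -2.47, SE 0.474, limma adjusted p = 0.00936). With a neonatal WT mean log2(CPM + 1) of 1.65, a fall as large as that in adults was not possible in neonates. Cpt1a differed by 1.0 in adults and 0.23 in neonates (difference 0.77, SE 0.107, limma adjusted p = 0.000202), so the rise of this oxidation gene was larger in the adult. Scd2 likewise differed by 2.78 and 1.70 (difference 1.08, SE 0.2, limma adjusted p = 0.00961). Cyp3a11 differed by 1.45 in adults and 4.03 in neonates, where it measured 12.7, 15.2 and 12.1 CPM in the WT pools against 199, 277 and 226 CPM for KO (difference -2.58, SE 0.336, limma adjusted p = 0.00346). In Cyp2b10 the adult value of -0.77 and the neonatal value of 1.88 had opposite signs (difference -2.69, SE 0.385, limma adjusted p = 0.00487). The neonatal rise started near the floor, with a WT mean log2(CPM + 1) of 0.65.

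**Figure D5:**
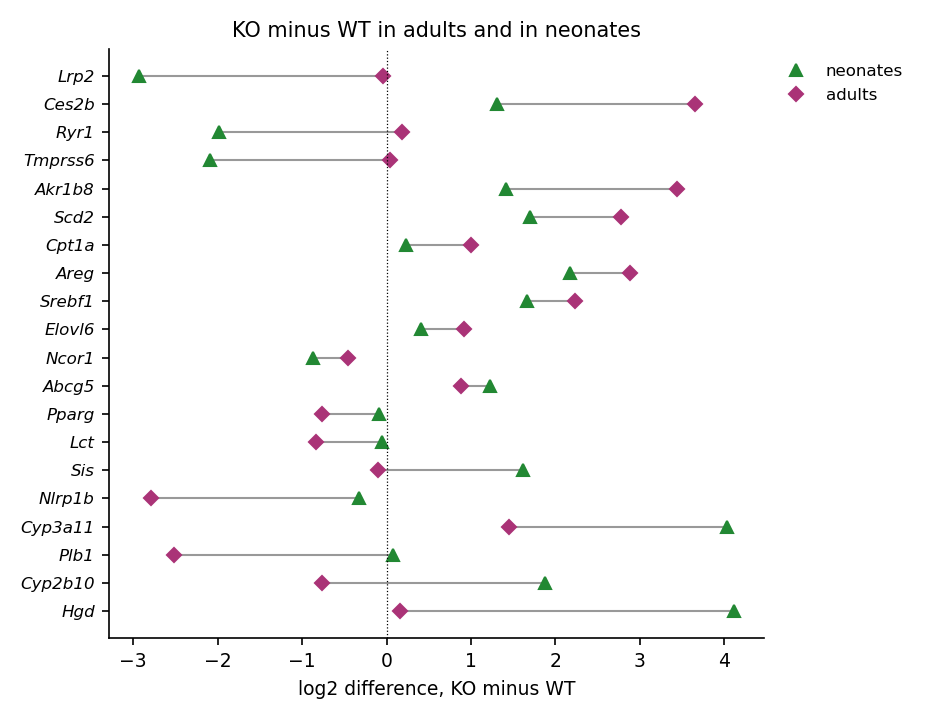
Log2 difference (KO minus WT) in adults (diamonds) and in neonates (triangles) for 20 named genes whose difference between ages was called by limma; each point is a group difference of 3 against 3 libraries. Hgd lies at 0.16 in adults and 4.12 in neonates, Nlrp1b at -2.79 and -0.32, and Ncor1 at -0.46 and -0.87.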

How the data were processed

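Strand-specific mRNA libraries from pools of 2 mice were sequenced for 36 cycles. The authors aligned reads to mm9 with Bowtie 0.12.2, per the submitters' processing notes, and counted exon reads on the opposite strand with HOMER analyzeRepeats, per the file headers. The deposited values are a scaled signal, reads per gene multiplied by a factor for each library. Dividing by that step recovered whole reads for 100% of values above 0 within 0.01 deposited units, and the authors' own fold changes were not used.

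Reads were scaled with TMM (edgeR 4.0.16), and genes with at least 1 CPM in 3 libraries were tested on log2(CPM + 1) with limma 3.58.1 in R 4.3.3. Log2 differences refer to log2(CPM + 1), where low genes appear to change less than they do. Folds are ratios of mean CPM. Calls used a Benjamini-Hochberg adjusted p of 0.05 over all genes tested. Count tests with edgeR and DESeq2 1.42.0 were alternatives. The fits were tested on simulated data. The p-values measure the spread between libraries. Nothing in the labels says that pools were prepared separately, so how far this spread reflects independent pools is unknown. Totals of 9775420 to 13057329 reads in genes limit low genes most.

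The members and the 46 gene lists were chosen with earlier results of these data known. Named genes were Ncor1, the 15 largest rises and falls among called genes averaging 5 CPM or more in the higher genotype without overlap, up to 5 called members per list, a fixed list, the 5 largest age differences per direction, and called genes within 2 Mb of Ncor1. Provisional symbols were left out of the largest changes. Promoter windows came from RefSeq (GRCm38.p6), and gene coordinates are mm9. Of the 23954 symbols in the adult table, 27 had been turned into dates. Some genes that the rule names are not reported here.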

Additional observations from a re-analysis of the deposited data

Results flagged for a closer look

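The knockout effect of 20 named genes differed between adults and neonates by limma's test of the difference itself, given here as the adult minus the neonatal log2 difference. The adult value was the higher one for Lrp2 (2.91, adjusted p = 3.75e-06), Ces2b (2.32, adjusted p = 0.0228), Ryr1 (2.20, adjusted p = 0.000109), Tmprss6 (2.16, adjusted p = 4.07e-05) and Akr1b8 (2.01, adjusted p = 0.0487), and also for Scd2 (1.08, adjusted p = 0.00961), Cpt1a (0.77, adjusted p = 0.000202), Areg (0.71, adjusted p = 0.0274), Srebf1 (0.55, adjusted p = 0.0188), Elovl6 (0.51, adjusted p = 0.0136) and Ncor1 (0.41, adjusted p = 0.0105). The adult value was the lower one for Hgd (-3.96, adjusted p = 9.86e-11), Cyp2b10 (-2.69, adjusted p = 0.00487), Plb1 (-2.60, adjusted p = 0.0154), Cyp3a11 (-2.58, adjusted p = 0.00346), Nlrp1b (-2.47, adjusted p = 0.00936) and Sis (-1.72, adjusted p = 0.0276), and also for Lct (-0.79, adjusted p = 0.00013), Pparg (-0.67, adjusted p = 0.0441) and Abcg5 (-0.35, adjusted p = 0.0469). Leaving out single libraries ended 7 of these calls, and the highest adjusted p then came without WT neonates 2 for Abcg5 (0.131) and Ces2b (0.0657), without KO pool 2 for Akr1b8 (0.107), without KO neonates 3 for Areg (0.0768), without WT neonates 3 for Pparg (0.122) and Srebf1 (0.0587), and without KO pool 3 for Sis (0.0737). With edgeR the adjusted p of Ces2b was 0.412 and that of Plb1 0.469. Hgd, Lrp2, Ryr1 and Tmprss6 were below the filter in adults. Other genes were low in neonates, where the WT mean of log2(CPM + 1) was 0.65 for Cyp2b10, 0.69 for Plb1, 0.88 for Ces2b and 1.65 for Nlrp1b. In KO neonates these means were 2.53, 0.77, 2.19 and 1.33. The value of Plb1 therefore describes adults, because its neonatal levels were near the floor.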

How the results depend on the processing

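Under the deposited scaling the adult comparison gave 741 higher and 1870 lower calls, of which 1595 were shared with the 2188 calls reported (72.9%). Other alternatives gave totals of 2145 with DESeq2 size factors, 2184 with a pseudocount of 0.25 CPM, 1814 with no filter, 2204 with a filter of 5 CPM, 2196 with edgeR and 1824 with DESeq2. Leaving out each library gave totals from 1050 to 2145, with 664 to 1380 higher and 386 to 801 lower, 522 to 1136 for the difference between ages, and 27 to 53 within 10 Mb of Ncor1. Of the calls reported, 1021 were shared by the fit without KO pool 3 (46.7%). Ugt1a1, never called, changed sign without WT pool 2 (-0.01) and KO pool 1 (-0.03), with a range over leave-outs of -0.03 to 0.47, and the cause was not tested.

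Deviations of same-numbered libraries from their group means had correlations of 0.0661, -0.213 and -0.115. Deviations from a mean of 3 libraries depend on each other, so these values cannot decide whether the numbers pair the samples. A replicate block gave 1811 calls, 1117 higher and 694 lower, and 755 for the difference between ages.

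Over 177 single genes and their alternatives, 2132 of 2468 values kept direction and side of the threshold, 320 lost the call, 14 gained one and 2 changed sign. Low genes are limited by depth.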

Other observations

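Iron storage and neonatal-type enterocyte genes were not described above. Of 8 iron handling genes, 2 were higher and 0 lower, with a median log2 difference of 0.118, beside 9.94% of all genes called higher. The higher genes were the ferritin chains Fth1 (0.54, limma adjusted p = 0.0476) and Ftl1 (0.60, limma adjusted p = 0.015). Fth1 lost its call with the deposited scaling (0.11), with no filter on low values (0.0649) or with a replicate block (0.105). Of 9 genes of the suckling enterocyte, 1 was higher and 2 lower, and 2 were higher without WT pool 1. Fcgrt, the neonatal receptor for antibodies, measured 55.52, 50.03 and 54.23 CPM in the WT pools against 92.2, 112 and 115 CPM for KO (log2 difference 0.98, SE 0.0945, limma adjusted p = 5.9e-05). Amn, a partner in vitamin B12 uptake, had WT values of 132, 101.3 and 146 CPM and KO values of 60.5, 63.7 and 74.8 CPM (log2 difference -0.91, SE 0.134, limma adjusted p = 0.00207). The number of higher iron genes was 1 without WT pool 1, WT pool 2, WT pool 3 or KO pool 1 and 0 without KO pool 3.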
